A study of Mus musculus with 2 samples.

Results

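Lymphoid tissue inducer (LTi) cells were profiled by chromatin immunocleavage with an antibody to TCF-1, and the caller listed 19531 islands, which are stretches of clustered reads, of which 19528 lie on nuclear chromosomes. Described here are the 1112 nuclear islands (5.69%) in which the control library had no read. They were chosen by one measured value, a control-library read count of 0, so their fold, p-value and FDR follow from the choice and support nothing. Measures that the choice did not use were position, neighbouring islands and sequence. They were set against 14760 nuclear islands that had at least 1 control-library read and a peak-library read count that occurs among the 1112, weighted so that both sets had the same distribution of peak-library reads. Motif shares of promoters were compared without these weights.

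The series has 2 libraries of 500 fixed C57BL/6 cells each, 1 per group. One was made from Tcf7+/+ cells of Peyer's patches. The other was made from Tcf7fl/fl-VavCre cells of the small intestine lamina propria, in which Cre driven by Vav, active across blood cell lineages, deletes Tcf7. All cells were sorted as lineage-negative, CD127+ and CCR6+ without KLRG1, NK1.1 or NKp46. The table calls its read columns peak and control and names no sample, so neither column was tied to a genotype. Genotype and tissue differed together and cannot be told apart. There is no replicate and no test between conditions, and intervals cover counting error over islands within these 2 libraries only.

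TCF-1, encoded by Tcf7, is an HMG-box transcription factor that binds DNA with a core close to CTTTGAT and works with beta-catenin or with Groucho-type corepressors. In innate lymphoid cells it is known for its part in progenitors and in group 3 cells, the family to which LTi cells belong. In chromatin immunocleavage the antibody brings micrococcal nuclease to the protein, and open chromatin such as active promoters can also be cut without the protein being there.

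Promoters that lie under an island without control reads show the DNA concerned. The windows of 115 promoters of 100 protein-coding genes overlapped such an island. Among the windows in the promoter table, the only ones of listed genes were those of Il17f, which encodes the cytokine IL-17F, and Tnfsf11, which encodes RANKL, the TNF family ligand by which LTi cells act on stroma. They are printed with the promoters under the most peak-library reads, those of Smyd2, a protein lysine methyltransferase gene, and Mfsd9, a gene of the major facilitator family. Each run is the 250 bases before an annotated start (RefSeq, GRCm38.p6), 5′ to 3′ on the gene's strand, which is the minus strand for all 4. Capitals mark matches to the motifs searched on both strands, CTTTGAT and CTTTGTT (TCF/LEF), TGTGGT (RUNX) and TGANTCA (AP-1), none of which overlap here. The coordinates are chr1:20784271-20784520 (Il17f), chr14:78308044-78308293 (Tnfsf11), chr1:189922292-189922541 (Smyd2) and chr1:40790658-40790907 (Mfsd9).
Il17f: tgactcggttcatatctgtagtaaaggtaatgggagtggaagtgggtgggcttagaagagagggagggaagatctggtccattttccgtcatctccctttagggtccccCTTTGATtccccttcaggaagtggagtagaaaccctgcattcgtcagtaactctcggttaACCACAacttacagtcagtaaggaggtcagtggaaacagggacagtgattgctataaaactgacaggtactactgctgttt
Tnfsf11: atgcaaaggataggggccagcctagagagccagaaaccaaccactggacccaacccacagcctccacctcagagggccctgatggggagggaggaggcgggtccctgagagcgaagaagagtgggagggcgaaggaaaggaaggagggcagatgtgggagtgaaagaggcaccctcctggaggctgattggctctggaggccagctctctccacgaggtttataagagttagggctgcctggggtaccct
Smyd2: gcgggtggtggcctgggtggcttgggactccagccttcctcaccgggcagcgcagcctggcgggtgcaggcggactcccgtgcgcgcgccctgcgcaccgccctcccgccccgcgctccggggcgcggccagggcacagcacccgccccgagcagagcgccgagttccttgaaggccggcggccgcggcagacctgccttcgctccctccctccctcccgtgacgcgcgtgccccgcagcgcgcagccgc
Mfsd9: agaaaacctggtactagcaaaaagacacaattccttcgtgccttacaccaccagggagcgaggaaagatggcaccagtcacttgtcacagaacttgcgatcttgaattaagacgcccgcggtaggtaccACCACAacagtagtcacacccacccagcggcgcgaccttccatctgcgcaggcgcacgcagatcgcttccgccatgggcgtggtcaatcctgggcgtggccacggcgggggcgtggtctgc

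The Il17f window holds CTTTGAT from base 110 and, on the other strand, TGTGGT from base 170. The Mfsd9 window holds TGTGGT on the other strand from base 130, and the 2 remaining windows hold no match to these letters. The islands over them had 13, 9, 26 and 24 peak-library reads at Il17f, Tnfsf11, Smyd2 and Mfsd9. Over all 115 windows, 6 (5.22%, 95% interval 1.94 to 11.01) held CTTTGAT or CTTTGTT. Of all 21263 protein-coding promoters 7.12% did, and of the 5014 promoters under a comparison island and under none without control reads, 5.05%. Shares of these 5014 promoters are plain counts, not weighted to the same peak-library reads. TGTGGT stood in 12 of the 115 (10.4%, 5.51 to 17.5) against 12.4% of all promoters and 10.7% of those under a comparison island. TGANTCA stood in 7 (6.09%, 2.48 to 12.1) against 6.13% and 3.31%. Both shares lay inside each interval, so no difference could be seen at this number of windows.

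Islands without control reads held few peak-library reads, which is not independent of the choice. They held 7 to 28 peak-library reads, with a median of 11 (quartiles 10 and 13), and 12960 reads in all. The median was 16 in all nuclear islands with 1 or more control reads. Their share among nuclear islands fell with the peak-library reads. It was 32.3% (20.9 to 45.3) at 7 reads, 13.99% (12.2 to 15.9) at 10 and 2.66% (1.63 to 4.07) at 18. Among the 3804 islands with 20 to 28 peak-library reads 33 had no control read (0.868%), and among the 3249 with 29 or more there was none. The plot of members by peak-library reads shows both the number and the share.

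**Figure D1:**
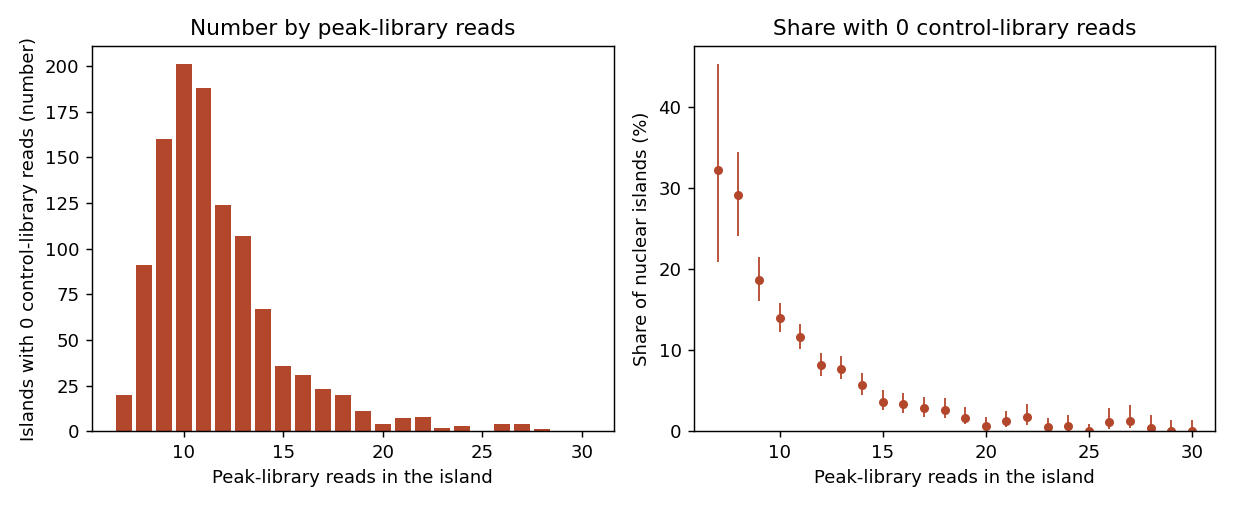
Left, number of islands with 0 control-library reads at each peak-library read count; right, their share of all nuclear islands with that count, with exact 95% intervals. The number peaks at 201 islands with 10 reads, and the share falls from 32.3% at 7 reads to under 2% from 19 reads on.

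An absent control read bounds the fold only weakly at this depth. A floor of 3 control reads was put in and scaled by the caller's factor of 1.997. An island with 7 peak-library reads is then 1.17-fold higher in the peak library. One with 11 reads is 1.84-fold higher, and the one with 28 reads 4.67-fold. These values take the peak reads as known. The floor suits 1 island not picked by its control count. All of these islands were chosen for a count of 0, so the values are no assured minimum. All 1112 islands had an FDR of 0.05 or less in the authors' deposited table, where 62.6% of nuclear islands did, and since the choice fixes this count nothing is read from it. Just outside the choice lie 2048 islands with exactly 1 control read, with a median of 11 peak-library reads and a median width of 1000 bp.

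Median width was equal in both sets up to 14 peak-library reads, and above that islands without control reads were mostly the narrower. They were 200 to 3800 bp wide, with a median of 1000 bp (quartiles 600 and 1250), and the weighted comparison islands had the same median with quartiles of 600 and 1400 bp. From 7 to 14 peak-library reads the median widths of both sets were equal at each read count, from 200 bp at 7 reads to 1400 bp at 14. At 16 reads they were equal too, at 1400 bp. At 15 reads, and at each count from 17 to 28 that occurs among them, islands without control reads had the smaller median, with 1400 against 1600 bp at 18 reads, 1400 against 2000 bp at 24 and 1800 against 2200 bp for the 1 island at 28. The median density was 12.5 peak-library reads per kb against 11.4 in the comparison. Width is not independent of the choice, because a wider island can catch more control reads, so these values are a description.

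Gene starts were the place where islands without control reads were scarce. A start is one listed in the promoter table for 17492 genes, and either end of the gene for the other 4395, among them Zmat4, Cd28 and Ywhaz. Within 1 kb of the start of a protein-coding gene lay 156 of the 1112 (14.03%, 12.04 to 16.2), against 29.01% (SE 0.512) of comparison islands at the same peak-library reads. The difference was -15.0 percentage points (95% interval -17.3 to -12.7). Gene bodies away from a start held 557 (50.1%, 47.1 to 53.1) against 42.2%, a difference of 7.87 points (4.72 to 11.02). The stretch from the gene's edge to 10 kb held 12.1% against 12.6%, with a difference between -2.50 and 1.66 points. Farther out the shares were higher again, at 13.9% against 10.0% between 10 and 50 kb (difference 3.91, 1.76 to 6.06) and 9.80% against 6.18% beyond 50 kb (difference 3.62, 1.79 to 5.46). In total 76.3% lay within 10 kb of a protein-coding gene, against 83.8%.

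**Figure D2:**
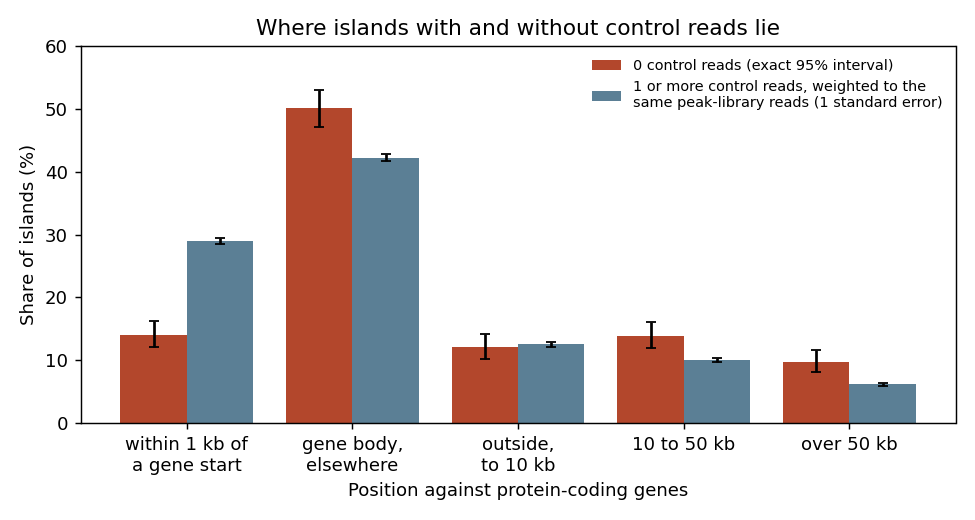
Share of islands (y axis, %) by position against protein-coding genes (x axis) for the 1112 islands with 0 control reads (exact 95% intervals) and for islands with 1 or more control reads weighted to the same peak-library reads (bars of 1 standard error). The pair of bars at gene starts stands at 14.03% and 29.01%, and the pair in gene bodies at 50.1% and 42.2%.

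The gap at gene starts was present in every range of peak-library reads examined. It was -11.3 points (-16.4 to -6.18) at 7 to 9 reads, -10.9 (-14.6 to -7.16) at 10 and 11, and -17.0 (-21.1 to -12.8) at 12 to 14. At 15 to 19 reads 22 of 121 such islands (18.2%) lay at a start against 41.4%, a gap of -23.2 (-30.2 to -16.2). At 20 to 28 reads it was 4 of 33 (12.1%) against 57.9%, a gap of -45.8 (-57.1 to -34.5). With peak-library reads and width both matched, the gap over the 1109 islands that had a match was -16.2 points.

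Islands with more control reads mostly lay at gene starts more often. Among islands with 9 to 14 peak-library reads, 12.99% (10.8 to 15.4) of the 847 without control reads lay at a gene start. With 1 control read it was 19.1% (17.2 to 21.2), an interval apart from that without control reads. With 2 reads it was 20.5% (18.5 to 22.6), with 3 reads 27.9% (25.5 to 30.3), with 5 reads 34.8% (31.1 to 38.5), with 6 reads 42.6%, with 7 reads 40.7% and with 8 or more 48.4% (43.0 to 53.8). The share more than 50 kb from a gene went the other way, from 9.33% without control reads to 3.19% with 8 or more. In the same range of peak-library reads, islands at gene starts held a mean of 3.75 control-library reads and those beyond 50 kb a mean of 2.38. Seen from position, 5.25% of the islands at starts, 12.4% of those in gene bodies and 15.3% of those beyond 50 kb had no control read. Positions group control reads here, so this series of shares describes the choice and is no separate support for it.

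**Figure D3:**
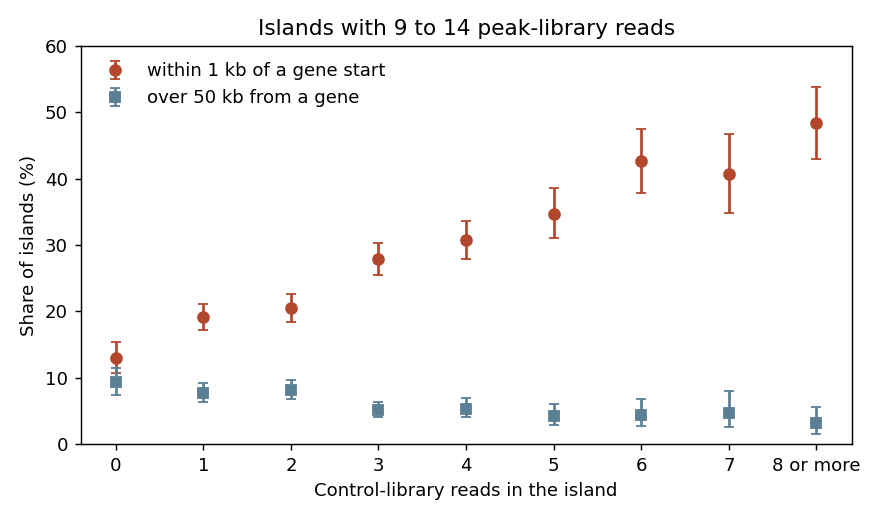
Share of islands (y axis, %) within 1 kb of a gene start (circles) and over 50 kb from a gene (squares) by control-library reads (x axis), for nuclear islands with 9 to 14 peak-library reads, with exact 95% intervals. The circles run from 12.99% at 0 control reads to 48.4% at 8 or more, and the squares from 9.33% to 3.19%.

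Away from gene starts differences in position from the comparison islands were smaller for gene overlap but not absent. Within 10 kb of a gene lay 72.4% of the 956 islands without control reads that were not at a start, against 77.1% of comparison islands away from starts (difference -4.69 points, -7.73 to -1.64). Of the same 956 islands, 58.3% overlapped a gene against 59.5%, a difference between -4.59 and 2.19 points. The share beyond 50 kb was 11.4% against 8.76% (difference 2.64, 0.497 to 4.79). In bodies of genes of 100 kb or more lay 25.7% against 22.9%, and the difference of 2.84 points (-0.140 to 5.81) could not be told from 0.

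Islands without control reads stood more alone than others. Another island of any kind lay within 10 kb of 496 of them (44.6%, 41.7 to 47.6) against 52.7%, a difference of -8.14 points (-11.3 to -5.00). Away from gene starts the difference was -11.7 points (-15.1 to -8.25). The median distance to the next island was 13201 bp against 9001 bp. Another island without control reads lay within 50 kb of 169 of them (15.2%) and of 13.1% of comparison islands. That difference of 2.12 points (-0.128 to 4.36) could not be told from 0. An island of any kind lay within 50 kb of 79.5% against 85.8%, and the 2 sets were not matched for this. Whether islands without control reads gather with each other was therefore not decided.

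The islands with the most peak-library reads were spread over gene starts, gene bodies and distant positions. The 12 with 24 reads or more included 3 at a gene start, 2 in a gene body, 1 within 10 kb of a gene and 6 farther out. The strongest, chr9:52258801-52260600, had 28 reads and lay 90.1 kb from Zc3h12c, the nearest protein-coding gene. An island of 27 reads, chr13:16225601-16229000, lay 194 kb from Inhba, which encodes a subunit of activin, and overlapped a RefSeq gene that is not protein-coding. At 3400 bp it was also the second widest. Another 27-read island, chr17:15106801-15108400, lay 16.8 kb from Ermard. Within genes, 27 reads fell in chr14:122951401-122952600 in the body of Tmtc4 and in chr8:23645601-23647400 over one end of the zinc finger gene Zmat4. The start of Smyd2 had 26 reads in 2000 bp and that of Mfsd9 24 reads in 1400 bp.

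The genes nearest to the other strong, wide or distant islands varied in function, and several of these genes lay more than 10 kb away. Islands of 26 reads lay at chr14:65782601-65784400, 17.8 kb from Scara5, a ferritin receptor gene, and at chr9:124270401-124272200 in Gm39469. Islands of 24 reads lay 5.05 kb from Cpn1, which encodes a carboxypeptidase N subunit, and 12.2 kb from Lrrc28. The widest island, chr18:9484401-9488200 near Ccny, had 26 reads in 3800 bp. Other wide ones were 3200 bp with 21 reads 3.19 kb from Fbxw7, a ubiquitin ligase subunit gene, 2400 bp with 22 reads in Ccdc146 and within 10 kb of the fibrinogen-like gene Fgl2, and 2400 bp with 21 reads 20.3 kb from the chemokine gene Xcl1. The most distant were narrower or weaker. An island of 200 bp with 18 reads on chromosome X lay 627 kb from Cldn34c4. Its 90 reads per kb were the highest density among the 1112, and the next island was 1317 kb away. Islands of 12, 17, 14 and 18 reads lay 536 kb from Tox, 501 kb from Cited2, 491 kb from Tent5a and 446 kb from Cd83. These distances are to protein-coding genes. The island nearest to Cd83 lay 92 bp from a RefSeq gene of another kind. The rest of the most distant ones lay 11595 to 96208 bp from such a gene.

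In all, 848 of the islands reached 973 protein-coding genes within 10 kb, 4.45% of the 21887 in the annotation, where islands of any kind reached 54.7%. Most of these genes, 903, had a single such island, 60 had 2, 9 had 3 and 1 had 4. Islands with control reads also lay at 759 of the 973 (78.0%), and at the other 214 the island without control reads was the only kind. The genes reached were long, with a median of 44.4 kb, against 22.2 kb for genes reached by comparison islands and 17.2 kb for all protein-coding genes. The comparison median covers the genes reached by any of the 14760 comparison islands, without weights. Longer genes offer more room for an island, and neither gene length nor the number of islands was matched. The 2 medians are therefore not like for like.

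Il1r1 led the 10 genes with 3 or more such islands, and Cntn1 and Unc13c, known from neurons, were among the longest. Il1r1, which encodes the interleukin-1 receptor that group 3 innate lymphoid cells use to sense IL-1, had 4 within its body, with 14, 11, 15 and 14 peak-library reads, among 16 islands. Its other 12 islands held 246 against 47 control-library reads. Such pairs of reads are given here and below unscaled, without the caller's factor of 1.997 on control reads. Ikzf2, which encodes the Ikaros family factor Helios, had 3 (9, 9 and 14 reads) among 7 islands, and Tec, a cytoplasmic tyrosine kinase gene, had 3 (14, 9 and 10) among 12. Fam155a (567 kb) had 3 of its 4 islands without control reads, with 12, 14 and 10 reads, and 14 against 1 in the remaining one. Unc13c (529 kb), a synaptic vesicle priming gene, had 9, 10 and 11 reads in such islands, and its other 3 held 42 against 3. Cntn1 (291 kb), a neuronal adhesion gene, had 10, 15 and 11, and its other 4 islands held 61 against 8.

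The remaining genes with 3 differed in what lay beside them. Adamts14, a procollagen protease gene, had no other island within 10 kb. Of its 3, the one with 13 reads lay inside the gene. Those with 12 and 9 reads lay 2382 and 4982 bp outside. Cbx5, the gene of heterochromatin protein HP1 alpha, had 13, 10 and 14 reads in its 3 and 59 against 31 in its other island. With control reads scaled, the authors' fold for that other island was 0.953. Of the 3, only the island with 10 reads lay inside Cbx5. Those with 13 and 14 reads lay 6546 and 9097 bp outside, and the latter overlapped another protein-coding gene. At Ssh2, a cofilin phosphatase gene, the 3 held 11, 13 and 8 reads while the other 6 islands held 175 against 73. The island with 8 reads lay 6981 bp outside Ssh2, in another protein-coding gene. Pxdc1 had 10, 9 and 13 reads, the last of these 6920 bp outside the gene, and 39 against 9 in its other 2 islands. The plot of reads per island at these genes shows that the islands without control reads were among the weaker ones at Il1r1, Tec and Ssh2. At Adamts14, Fam155a, Cbx5 and Pxdc1 most islands were of this kind.

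**Figure D4:**
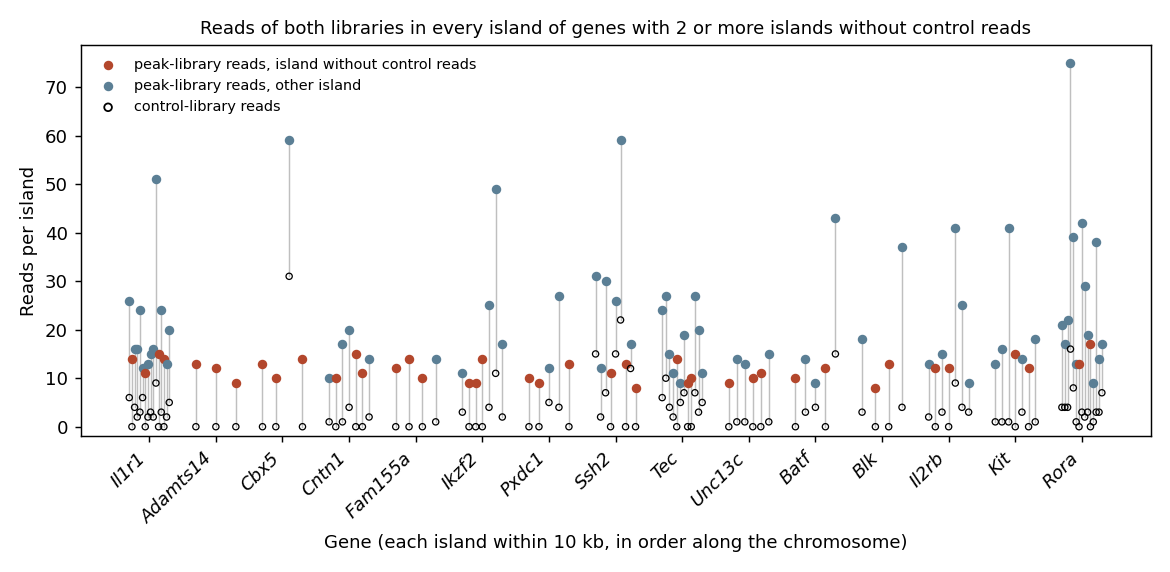
Reads per island (y axis) in the peak library (filled) and the control library (open) for every island within 10 kb of each named gene with 2 or more islands without control reads, in order along the chromosome. Il1r1 has 4 such islands of 11 to 15 reads among 16, and the 3 islands of Adamts14 are all of this kind. Control-library reads are shown unscaled.

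Among genes of LTi cells, 6 of the 25 on the LTi and ILC3 identity list (group 3 innate lymphoid cells, ILC3) were reached, 24% against 4.45% of all protein-coding genes. Lists rich in islands are reached more often, so the islands were counted too. Of 140 islands at this list 12 had no control read (8.57%, 4.51 to 14.5), against 5.05% at all protein-coding genes, a value inside the interval. At the whole table's share for each peak-read count the 140 islands would hold 6.76. That number does not allow for position. Of the 140 islands 19.3% lay at a gene start, where islands without control reads were scarce, against 49.9% at all protein-coding genes. How far position accounts for the 12 was not tested. Besides the 4 at Il1r1, Kit, the stem cell factor receptor gene, had 2, with 15 reads in its body and 12 reads 1279 bp outside it, and 102 against 7 reads in its other 5 islands. Rora, a nuclear receptor gene, had 2 in its body, with 13 and 17 reads, within a run of 15 islands. Batf, an AP-1 family gene, had 2, with 12 reads in the gene and 10 reads 7120 bp outside. Runx3 and Il18r1 were also reached.

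Of the 14 genes for LTi cytokines and TNF ligands 3 were reached (21.4% against 4.45% of all genes). The 24 islands at this list included 3 without control reads (12.5%, 2.66 to 32.4), an interval that holds the 5.05% at all genes, with 1.58 at the table's share. At Il17a, the gene of IL-17A, the only island lay 5905 bp outside the gene and had 16 reads. With the floor of 3 control reads put in, that is 2.67-fold higher, which is no assured minimum. Il17f had 13 reads over the start printed above and 17 against 4 in its other island. Tnfsf11 had 9 reads over its start, and 28 against 6 in its other 2 islands.

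Of 25 Wnt pathway genes and TCF partners, the pathway of TCF-1 itself, 3 were reached (12% against 4.45% of all genes). By islands it was 3 of 75 (4.00%, 0.833 to 11.2), against 5.05% at all genes and 4.24 at the whole table's share for these peak reads. They lay in Apc (10 reads) and Gsk3b (8 reads), both of the destruction complex that degrades beta-catenin, and in Znrf3 (9 reads), a ubiquitin ligase gene that lowers Wnt receptors. Tcf7, on chromosome 11 at 52246527 to 52283383, had no such island. Its 9 islands held 143 against 31 unscaled reads, with 1 to 7 control reads in each.

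Lymphoid transcription factor genes were reached at 6 of 24, 25% of the list, as large a share as on the identity list. By islands it was 8 of 171 (4.68%, 2.04 to 9.01), against 5.05% at all genes and 8.33 at the table's share. Beside Ikzf2 these were Prdm1, the gene of Blimp-1, with 12 reads 5043 bp outside the gene, and Bach2 and Nfatc1 with 11 reads each inside the gene, as well as Tcf4 and Tcf12, 2 E protein genes. Cytokine receptor and signalling genes were reached at 2 of 23 (3 of 94 islands, 3.19%, 0.663 to 9.04, with 5.03 at the table's share). Il2rb had 12 reads in an island inside the gene and 12 reads in another 2456 bp outside. Ifngr1 had 11 reads 9172 bp outside the gene. Of 18 migration and adhesion genes Cd44 was reached (14 reads), and of 18 NF-kB and AP-1 genes Birc3 (10 reads), 5.56% of each list, near the share of all genes. By islands these were 1 of 46 with 2.15 at the table's share, and 1 of 53 with 1.84.

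Genes that mark other cells of these tissues were reached in part. Of 20 genes of T cell receptor signalling 3 were reached, Cd28 with 10 reads over one end of the gene, Cd247 with 9 and Cd5 with 8 (15% of genes). By islands it was 3 of 46 (6.52%, 1.37 to 17.9), with 2.67 at the table's share. Of 12 NK cell and ILC1 (group 1 innate lymphoid cell) markers, Itga2 (14 reads) and the perforin gene Prf1 (11 reads) were reached, with 2 of 11 islands (18.2%, 2.28 to 51.8) and 0.679 at the table's share. Of 11 B cell markers, Pax5 (14 reads) and the Src family kinase gene Blk (8 and 13 reads) were reached, with 3 of 24 islands (12.5%, 2.66 to 32.4) and 1.81 at the table's share. Each of these 3 intervals includes the 5.05% at all genes. None of the 11 ILC2 (group 2 innate lymphoid cell), 12 myeloid and 12 epithelial markers, or of the 14 liver, neuron and muscle genes, was reached, but these lists held only 9, 8, 4 and 3 islands of any kind. Of 12 housekeeping genes Ywhaz was reached (10 reads), with 1 of 34 islands and 1.31 at the table's share. What cells other than LTi cells contributed to either library was not tested, and islands do not measure expression.

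**Figure D5:**
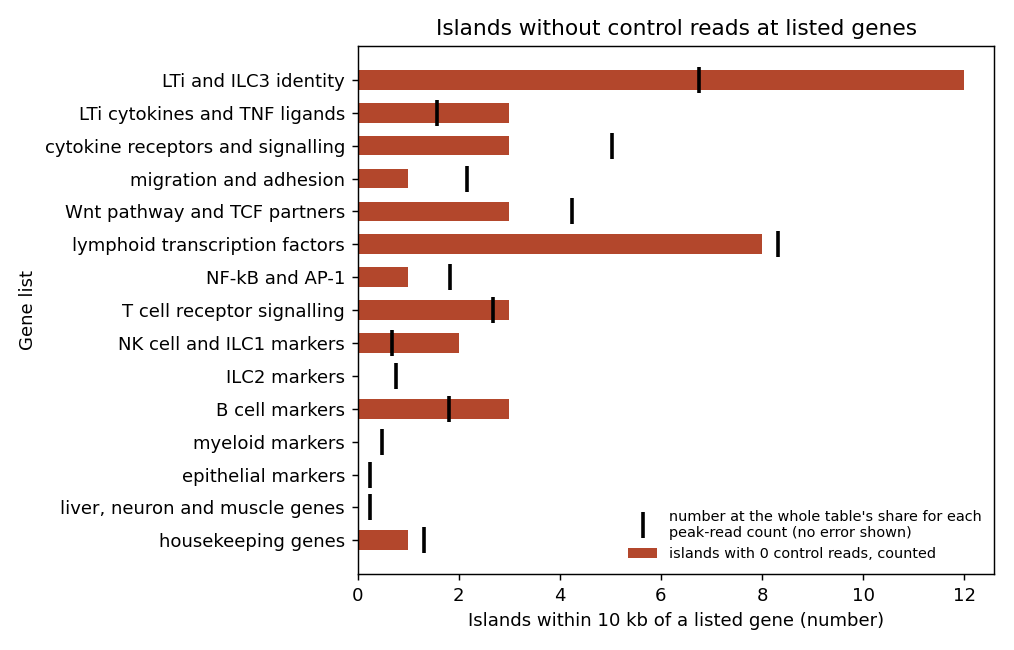
Number of islands without control reads (bars, x axis) within 10 kb of the genes of each list (y axis), with a tick at the number the list's islands would hold at the whole table's share for each peak-read count. The identity list has 12 against a tick at 6.76, and the lymphoid transcription factor list 8 against 8.33. The ticks do not allow for position, and lists differ in their share of islands at gene starts.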

How the data were processed

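The 2 chromatin immunocleavage libraries, 1 per group, were described from the single deposited table. Per the submitters' processing notes, Bowtie2 2.4.2, SICER 2.0 and the mm10 build were used. For duplicates and window settings, the sources used here give nothing. Per the file headers the authors deposited 2 columns of whole read counts per island, named peak and control, that name no sample, and library totals are unknown. The authors deposited the fold per island as a ratio of peak to scaled control reads, with a stand-in of 0.203 control reads (33 islands of 200 bp) or 0.25 (1079 wider ones) where control reads were 0. The authors deposited the p-value and FDR per island; they are not filtered.

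Starts and ends, counted from 0 in the table, were raised by 1. Genes came from RefSeq GRCm38.p6 (the mm10 build), 21887 of them protein-coding. A gene start is a start of the promoter table for 17492 genes and either end of the gene for the other 4395. Comparison shares, except the motif shares of promoters, were standardised directly over peak-library read counts, with binomial standard errors. Intervals of a share are exact (Clopper-Pearson) at 95%, and those of a difference are normal approximations from both binomial errors. All cover counting error only, because PCR copies can be counted as separate molecules and neighbouring islands are not independent. The procedure was tested on simulated islands, each drawn independently. That test cannot show how the intervals hold where neighbouring islands are not independent. Python 3.11.15, pandas 2.3.3, numpy 2.4.6, scipy 1.17.1 and matplotlib 3.10.9 were used.

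The members, lists and alternatives were chosen with earlier results of these data known. Named are the 10 islands with the most peak-library reads and their ties, the 5 widest (ties by reads), the 5 farthest from a gene, genes reached by 3 or more islands, and up to 4 genes per list by reads; Il18r1, Runx3, Tcf4 and Tcf12 were added to complete their lists after their values were seen. Printed promoters are those of listed genes first, then by peak-library reads.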

Additional observations from a re-analysis of the deposited data

How the results depend on the processing

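Of 104 alternative values, 86 stayed within the interval of the reported value, or within 1.5 times a reported count, 18 moved and 0 reversed. Counting islands with 1 control read as members gave 18.5% at gene starts, 78.8% within 10 kb of a gene, 48.1% with another island within 10 kb, and 2655 genes reached. With all RefSeq genes, 70.7% overlapped a gene, 87.4% lay within 10 kb and 1.80% beyond 50 kb of one; the difference beyond 50 kb then shrank to 0.773 points (-0.0484 to 1.59), an interval that includes 0. A reach of 0 kb gave 62.2%, and a reach of 50 kb gave 90.2%, a difference from comparison islands of -3.62 points, 2116 genes, and 52 listed genes against 30. A start window of 2 kb gave 19.1%. Of 3 alternatives added after the data were seen, leaving out chromosome 18 moved nothing past these limits (951 genes reached), promoter-table starts alone gave 11.1% (difference -12.2 points) and including the far ends of genes gave 16.6%. Other islands within 5 kb lay at 31.0%. Requiring an FDR of 0.05 or less left every island in place, so it tests nothing, although its values are counted among the 86. No paired analysis was possible because each group has 1 library. Depth limits single islands: a control count of 0 allows up to 3 reads in an island not chosen for that count.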

Other observations

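Beyond protein-coding genes, 94 of the 1112 islands without control reads (8.45%, 6.88 to 10.2) overlapped a RefSeq gene of another kind only, against 7.802% of comparison islands, a difference between -1.09 and 2.396 points. Of 1005 miRNA hairpins 2 lay under such an island, those of Mir12181 and Mir6538. The far ends of genes with known strand, within 1 kb, held 33 of the islands (2.97%) against 4.32%, a difference of -1.35 points (-2.45 to -0.261).

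By chromosome, the largest share of these islands lay on chromosome 2, with 108 (9.71%) against 7.79% of comparison islands. Chromosome X held 19 (1.71%, 1.03 to 2.66) against 1.81%, and chromosome Y held none of them among its 4 islands. For 3 of 21 chromosomes the interval of the difference excluded 0. The difference was 1.93 points (0.0767 to 3.78) on chromosome 2, -1.51 (-2.75 to -0.266) on chromosome 6 and -1.58 (-2.97 to -0.187) on chromosome 7. These intervals were not adjusted for the 21 chromosomes.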
